A study of Mus musculus with 14 samples.

Results

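Mesothelial nuclei of the mouse colon were picked from 2 single-nucleus libraries of the muscularis, the muscle coat of the gut wall, by their own RNA. A nucleus was kept when it had at least 300 genes detected and at most 5% of its unique molecular identifiers (UMIs, counted RNA molecules) from mitochondrially encoded genes. It was taken as a member when Msln, Upk3b, Wt1, Muc16, Bnc1 and Lrrn4 together had at least 2 UMIs and Pdgfra, a fibroblast gene, and Epcam, an epithelial gene, had none. The rule found 455 members among 2837 nuclei of the WT library and 341 among 1696 of the KO library, 796 of 4533 in all. KO stands for the label Carmn iKO and WT for WT mTmG, both on C57BL/6. Carmn makes a long non-coding RNA that marks smooth muscle, and the series asks about its place in gut contraction. The sources used here do not give age, the means of deletion or how many animals went into a library. Bulk RNA-seq of the same tissue layer added 3 KO and 3 WT libraries each for colon and jejunum.

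The mesothelium is the single sheet of flat cells that covers the outer, peritoneal face of the gut. It arises from mesoderm yet carries epithelial features such as keratins and cell junctions. It secretes lubricants and complement proteins, and it meets injury and peritoneal inflammation first. Msln encodes mesothelin and Muc16 a membrane mucin that binds it. Upk3b encodes an uroplakin, Wt1 and Bnc1 encode transcription factors of this lineage, and Lrrn4 encodes a membrane protein with leucine-rich repeats. On GRCm38 (GENCODE M21) Msln lies at chr17:25748613-25754378, Wt1 at chr2:105126529-105173616, Bnc1 at chr7:81966672-81992292, Lrrn4 at chr2:132868305-132880891, Muc16 at chr9:18495455-18674530 and Upk3b at chr5:136038496-136046487.

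Carmn itself, which checks the labels, gave mixed values. In other nuclei it stood at 255 CPM (UMIs or reads of a gene per 1000000 of the set of nuclei or library) in the KO library and 717 in the WT library, and in members at 95.3 and 288. In bulk colon it had 461, 304 and 718 CPM in the libraries labelled KO and 252, 171 and 351 in those labelled WT. In bulk jejunum it had 996, 817 and 909 CPM in those labelled KO and 240, 206 and 326 in WT. The bulk values were thus no lower under the KO label, overlapping in colon (log2 fold change 0.94, edgeR adjusted p = 0.234) and lying above every WT value in jejunum (1.82, adjusted p = 0.0646, and 7.89e-05 by DESeq2). Which part of the gene was deleted was not stated, and counts outside that part check nothing. Throughout, KO therefore means a library labelled KO, and all directions are between libraries by their labels. Bulk libraries held between 24254905 and 44315104 counts, and members had a median of 1464 UMIs in the WT and 2570 in the KO library.

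The gene start of Upk3b is shown because open chromatin there, which the rule did not use, set members apart in both libraries. The sequence is the RefSeq promoter on GRCm38.p6, on the plus strand, and capitals mark letters matched by a motif search on both strands.
Upk3b, chr5:136038246-136038545: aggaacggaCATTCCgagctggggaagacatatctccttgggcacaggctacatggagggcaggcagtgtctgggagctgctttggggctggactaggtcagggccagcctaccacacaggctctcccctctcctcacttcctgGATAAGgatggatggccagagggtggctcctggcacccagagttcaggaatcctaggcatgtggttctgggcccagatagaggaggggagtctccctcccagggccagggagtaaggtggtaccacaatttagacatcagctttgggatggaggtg
The first match, at base 10, is the TEAD motif GGAATG read from the other strand, which 14.7% of 32851 promoters of 300 bases hold. The second, at base 145, is the GATA motif GATAAG, held by 7.44%. The AP-1 motif TGANTCA, held by 7.81%, had no match in this window.

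An accessible region called by the authors' software spans this start, at chr5 136038075 to 136039184 in the WT and 136038080 to 136039080 in the KO library. In the WT library 15 of 455 members had a value there (3.30%, exact binomial interval 1.86 to 5.38), against 15 of 2382 other nuclei (0.630%, 0.353 to 1.04). In the KO library 12 of 341 members had one (3.52%, 1.83 to 6.07), against 12 of 1355 other nuclei (0.886%, 0.458 to 1.54). The intervals did not overlap in either library. They cover counting error only. Scaled by all region values of each set, the region was 5.17 times higher in members of the WT library (interval 3.0 to 8.93) and 4.42 times higher in those of the KO library (2.42 to 8.10). Only 11.6% of region values in the WT library are odd, so values may count both ends of a fragment, and the intervals may then be narrower than the number of fragments allows.

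Among 4362 regions that the libraries shared and that had at least 20 values in members of each, 13 (0.298%) were at least 2-fold higher in members of both libraries, and the Upk3b region had the highest smaller ratio. None was at least 2-fold lower in both. The limit of 20 values was set on members alone and not on other nuclei. Regions low in members were therefore less likely to be counted, so the counts of higher and lower regions cannot be set against each other. Others of the 13 lay at or near the starts of Abca4 (2.93 in WT and 2.80 in KO), Smim1 (2.50 and 3.02), Ptpru (2.12 and 2.05) and Mgp (2.19 and 3.0), the last encoding matrix Gla protein, an inhibitor of calcification. Of the 6 rule genes, 2 (33.3%) had a region within 1000 bp of a start listed in the WT file and 1 (16.7%) in the KO file. Over all 32285 genes the shares were 43.2% in the WT and 36.7% in the KO file, so the rule genes had listed regions no more often than other genes. The second WT region lies within Muc16 and held 10 values in members and 14 in other nuclei, a ratio of 3.57 (1.42 to 8.65). Both regions together gave a ratio of 4.65 in the WT library (2.95 to 7.33). At the start of Acta2, the smooth muscle actin gene, 3 members of 455 had a value in the WT library (0.659%) against 2.23% of other nuclei, and 7 of 341 in the KO library (2.05%) against 2.66%. The WT intervals for Acta2 overlapped slightly (0.136 to 1.91 and 1.67 to 2.90), and those of the KO library overlapped widely.

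The RNA that chose the members is given as a description. In the WT library members held Msln at 226 CPM, Upk3b at 288, Wt1 at 503, Muc16 at 2054, Bnc1 at 149 and Lrrn4 at 159 CPM. In the KO library the same genes stood at 851, 450, 517, 2180, 158 and 255 CPM. A Muc16 UMI was present in 93.3% of members, a Wt1 UMI in 62.1%, an Upk3b UMI in 48.7% and a Bnc1 UMI in 30.7%. Most members showed several of these genes. Only 11.4% of WT and 5.87% of KO members rested on 1 gene alone, and 8 and 39 members held all 6. The median sum was 6 UMIs in WT and 11 in KO members.

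**Figure D1:**
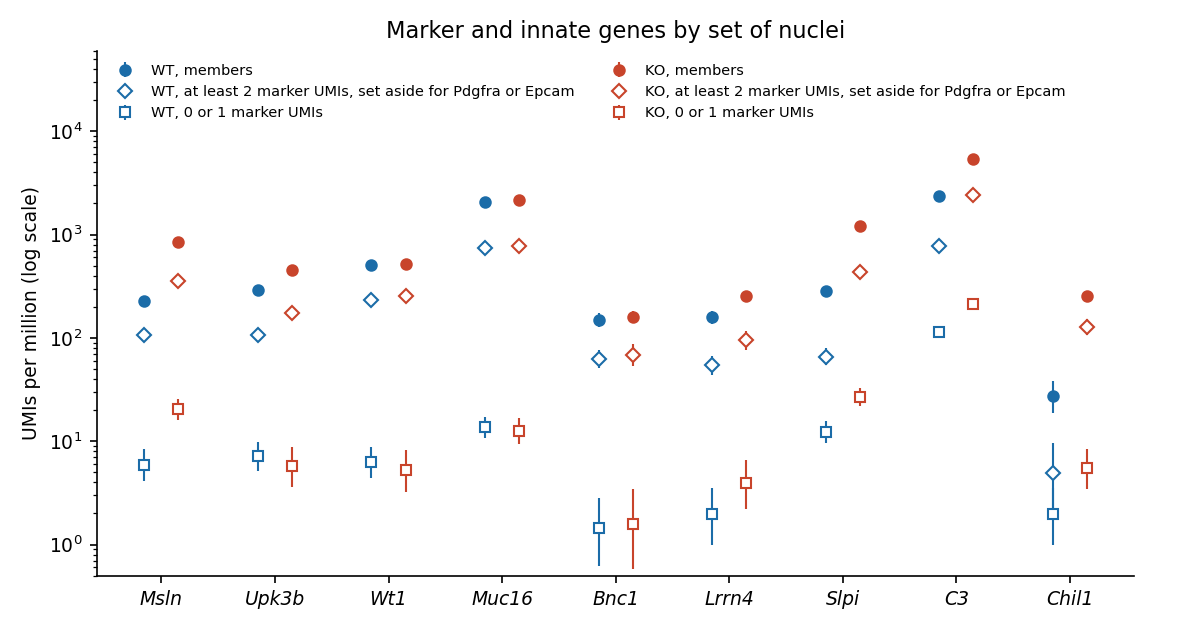
Level of each gene in CPM (log scale) in members, in nuclei with at least 2 marker UMIs that were set aside for Pdgfra or Epcam, and in nuclei with 0 or 1 marker UMIs, for each library, with exact Poisson intervals. Members lie highest for every gene shown, and Msln, Slpi, C3 and Chil1 are higher in the KO than in the WT library.

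The exclusion of Pdgfra and Epcam removed 47 WT and 45 KO nuclei, which were deep, with medians of 8067 and 10139 UMIs. They carried 37.6% of all Wt1 UMIs in the WT and 26.2% in the KO library. Nuclei just outside the rule, with 1 marker UMI, numbered 203 in WT and 188 in KO. Their summed level of 18 further mesothelial genes was 613 CPM in WT and 563 in KO, near the 457 and 443 CPM of nuclei with none. Nuclei with exactly 2 marker UMIs stood at 2457 and 1351 CPM for those genes, so in the KO library the step at the threshold was the smaller one. Of these nuclei 70 of 71 in WT and 41 of 51 in KO were members, so the KO value also includes nuclei set aside for Pdgfra or Epcam.

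The label was checked against those 18 genes, which the rule did not use. Of the 18, 17 were at least 2-fold higher in members than in other nuclei in both libraries, and Krt8 was the exception (1.15 in WT and 5.10 in KO). Over all genes with at least 50 UMIs in members, 707 of 7514 (9.41%) passed the same fold. Prg4 passed on 2 UMIs in WT members. Since RNA of the same nuclei chose the members, these counts describe them and test nothing. Gpm6a, a neuronal-type membrane glycoprotein gene, stood at 1622 CPM in WT and 1596 in KO members, 39.2 and 39.7 times its level in nuclei with 0 or 1 marker UMIs. Upk1b, a partner uroplakin gene, was 75.1 and 77.8 times higher. Aldh1a2, which encodes a retinoic acid synthesising enzyme, was 30.4 and 37.0 times higher, and Rspo1, a secreted Wnt amplifier, 40.4 and 62.0 times.

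By the highest smaller ratio over other nuclei, the leading genes with a UMI in at least 20% of members were Gm12381 (11.7 in WT and 13.2 in KO), Muc16, Lrrn4, Slpi, Prss12, Bnc1, Upk3b, Gpm6a, Crip1, Myrf, Vwa3a, Upk1b, Aldh1a2, Wt1 and Rspo1. Myrf encodes a membrane-bound transcription factor and stood 10.1 and 9.30 times above other nuclei. Slpi encodes a secreted inhibitor of leukocyte proteases.

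Of the other transcription factor genes, Gata6 was at 111 and 147 CPM in members, 3.79 and 5.79 times the level in other nuclei, and Gata5 at 20.4 and 22.0 CPM. Bnc2, the paralogue of Bnc1, was at 2749 and 2111 CPM but only 2.43 and 1.96 times above other nuclei. Tcf21 had 8 and 4 UMIs in all members, and Tbx18, an embryonic epicardial factor, 2 and 0. Among secreted signals, Fgf9 was 9.47 and 5.50 times, Wnt5a 6.75 and 7.27 times and Igfbp6, which binds insulin-like growth factors, 8.89 and 8.01 times above other nuclei. Rarres2, which encodes the chemoattractant chemerin, was 7.49 and 7.30 times higher. Ezr, which encodes the microvillus protein ezrin, was 4.59 and 7.71 times higher, whereas Cdh1, the epithelial cadherin gene, stood at 14.5 and 11 CPM, 0.32 and 0.42 times the level of other nuclei. Cdh2, the N-cadherin gene, was at 328 and 308 CPM (0.61 and 0.64 times).

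Genes of other cell types were present in members. The 5 smooth muscle genes summed to 3237 CPM in WT and 2649 in KO members, against 7550 and 6074 in nuclei with 0 or 1 marker UMIs, and none was at 0. The 5 fibroblast genes summed to 3282 and 4523 CPM against 926 and 1674, with Pdgfra at 0 by the rule. Dcn, which encodes the matrix proteoglycan decorin, made up 1939 and 2880 CPM of this in members, 19.3 and 14.4 times the level of the low-marker nuclei. Enteric glia genes summed to 825 and 873 CPM in members against 1508 and 985 in low-marker nuclei, and genes of interstitial cells of Cajal to 924 and 670 against 564 and 539. Enteric neuron genes stood at 204 and 93.8 CPM against 359 and 489, and mural cell genes at 125 and 164 against 210 and 353. Blood endothelial genes stood at 51.9 and 101.1 CPM against 70.5 and 165, and lymphatic endothelial genes at 99.6 and 108 against 102 and 119. Of these lists, the sums for fibroblasts and interstitial cells of Cajal ran above the low-marker level in members of both libraries. In the Cajal list Ano1 alone was higher, at 2.89 and 2.17 times the low-marker level. Kit stood at 0.52 and 0.39 times and Elovl6 at 0.55 and 0.41 times that level. Epithelial genes summed to 229 and 71.1 CPM against 692 and 416, with Epcam at 0 by the rule and Muc2, an intestinal mucin gene, at 252 and 93 UMIs. Macrophage genes stood at 51.9 and 138 CPM against 27.5 and 247, with none at 0. T-cell genes stood at 22.1 and 16.9 CPM against 16 and 86.4, with Cd3e at 0 in WT members, and B-cell genes at 14.5 and 30.04 against 20.3 and 55.5, with Cd79a at 0 in WT members. The adipocyte list had 0 and 1 UMI in all members and the skeletal muscle list 4 and 6. The part of RNA from neighbouring cells or free RNA in these sums was not tested.

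Nuclei were also grouped into 23 clusters without the rule genes, Pdgfra, Epcam and mitochondrial genes. Cluster 12 held 257 WT and 153 KO members, cluster 14 held 81 and 94, and cluster 10, made of deep nuclei, held 27 and 23. In cluster 12 members were 89.2% of WT and 91.1% of KO nuclei, and in cluster 14 they were 87.1% and 90.4%. The remaining 90 WT and 71 KO members were spread over other clusters, where they made up 3.74% (3.02 to 4.58) and 5.12% (4.02 to 6.41) of nuclei, where all nuclei had median depths of 1639 and 1774 UMIs. The scattered members had smooth muscle genes at 5653 and 5015 CPM and the 18 further mesothelial genes at 1826 and 2046 CPM, against 9359 and 9309 in cluster 12 and 8524 and 10241 in cluster 14. The further mesothelial genes were thus high in clusters 12 and 14 and much lower in the scattered members, whose label is less certain. These 18 genes were not held out of the clustering, so the contrast is a description and does not test the label.

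Members made up 16.04% of nuclei in the WT library (exact binomial interval 14.7 to 17.4) and 20.1% in the KO library (18.2 to 22.1). With 1 library per genotype there is no test of this difference. It was not present at all depths. Among nuclei with under 1000 UMIs the share was 16.1% in WT and 15.04% in KO, and among those with 1000 to under 2000 it was 18.5% and 17.6%. Among nuclei with 2000 to under 4000 UMIs it was 13.6% (11.1 to 16.4) in WT and 19.5% (15.7 to 23.8) in KO, so KO stood higher from this depth on, with intervals that just overlapped. Among nuclei with 4000 UMIs or more it was 14.8% (11.6 to 18.5) in WT and 29.3% (24.9 to 34.1) in KO. When mitochondrial UMIs were limited to 1%, the shares were 12.3% and 12.2%, and with no mitochondrial limit they were 16.7% and 24.4%.

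**Figure D2:**
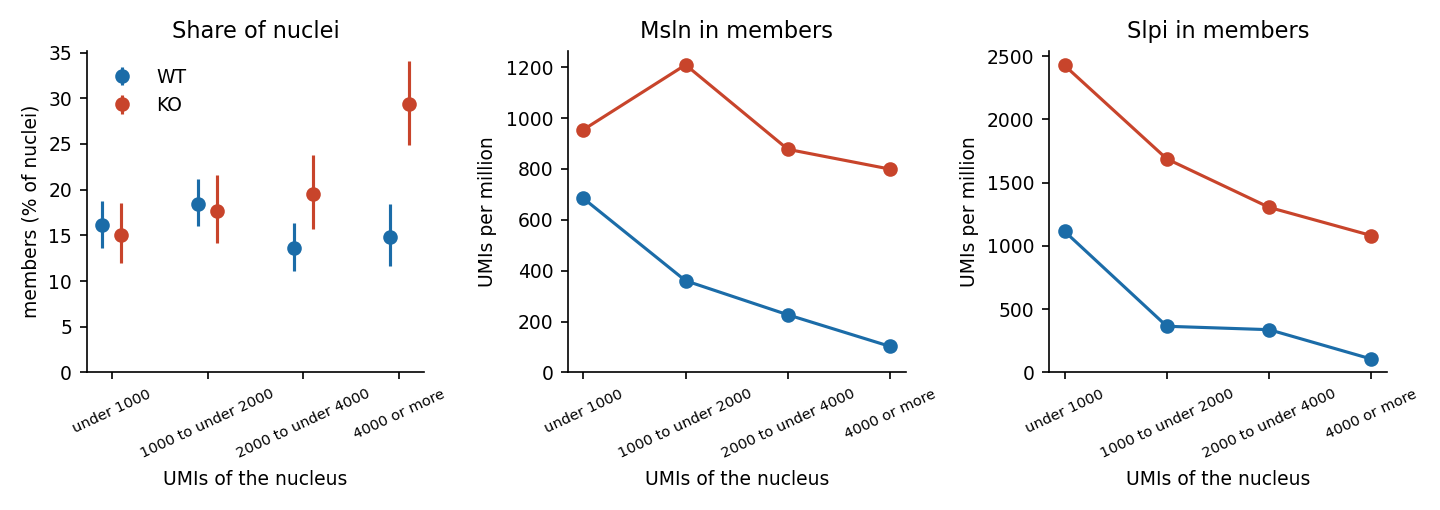
Members as a percent of nuclei with exact binomial intervals, and the level of Msln and Slpi in members in CPM, by the total UMIs of the nucleus and by library. Intervals of the shares overlap below 4000 UMIs and part above, and the levels fall with depth in the WT library, from 685 to 102 CPM for Msln.

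Members carried more mitochondrial RNA than nuclei with 0 or 1 marker UMIs. The median share was 0.381% of UMIs in WT and 0.894% in KO members, against 0.0387% and 0.0942% in the low-marker nuclei. Over 1% was reached by 128 of 455 WT members (28.1%) and 164 of 341 KO members (48.1%), compared with 1.88% and 4.89% of low-marker nuclei. The mitochondrial share was higher in the KO library in both sets of nuclei. Of the 13 mitochondrially encoded genes, mt-Co1, a subunit of cytochrome oxidase, stood at 1576 and 3011 CPM and mt-Nd1, a subunit of complex I, at 524 and 1367 CPM in members. Relative to low-marker nuclei mt-Co1 was 8.44 and 11.5 times higher. Members of cluster 14 held most, with medians of 1.91% in WT and 2.61% in KO, against 0.244% and 0.460% in cluster 12.

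The limit of 5% itself removed barcodes that carried mesothelial RNA. In the WT library 31 barcodes with at least 300 genes lay over it, and in the KO library 140. Of these, 23 and 107 would otherwise have been members. The 107 KO barcodes had a median of 2272 UMIs, with Msln at 2473 CPM, Slpi at 3010 and C3 at 12908, all higher than in the KO members kept.

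Slpi, C3 and Chil1, genes of innate defence, were spread unevenly over members. C3 encodes the central complement protein and Chil1 a chitinase-like lectin. Slpi stood at 287 CPM in WT and 1215 in KO members, C3 at 2380 and 5415, and Chil1 at 27.2 and 252. Taking at least 5 UMIs of the 3 genes together as high, 215 of 455 WT members (47.3%, 42.6 to 52.0) and 249 of 341 KO members (73.0%, 68.0 to 77.7) were high. Among nuclei with 0 or 1 marker UMIs, with median depths near that of WT members (1569 UMIs in the WT and 1704.5 in the KO library), 0.685% and 2.14% were high. KO members were deeper, so each was thinned to 1000 UMIs, which left 320 WT and 270 KO members. Then 23.8% and 47.0% were high, against 0.184% and 0.548% of thinned low-marker nuclei. Without thinning the upper tail was longer in the KO library, where 20 members had 100 UMIs or more of these genes. The highest had 521, whereas the WT maximum was 52. No WT member of 455 reached 100, for which the exact binomial upper bound is 0.807%. These tail values are not matched for depth. After thinning 0 members of either library reached 100, and 2 of 270 KO (0.741%) and 0 of 320 WT members reached 50. High members also held more mitochondrial RNA, 0.772% of pooled UMIs against 0.360% in WT and 1.58% against 0.530% in KO, and the part of this in the result was not tested.

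**Figure D3:**
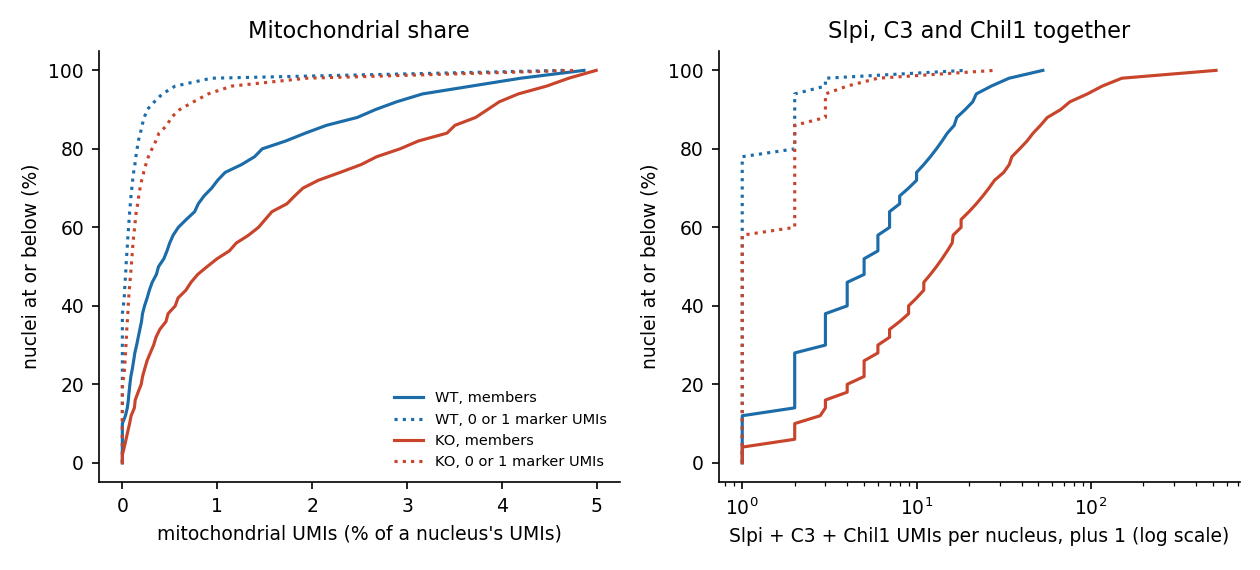
Share of nuclei (percent) at or below each mitochondrial share (percent of a nucleus's UMIs, left) and at or below each sum of Slpi, C3 and Chil1 UMIs plus 1 (log scale, right). Solid lines are members and dotted lines nuclei with 0 or 1 marker UMIs. KO members lie to the right of WT members in both panels, and the right panel is not thinned for depth.

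Between the members of the libraries, 422 of 7514 genes with at least 50 UMIs (5.62%) were at least 2-fold higher in the KO library and 279 (3.71%) at least 2-fold lower. The median ratio over these genes was 1.0. The comparison is of 2 libraries, has no replicate check, and its intervals are exact and cover counting error only. Of the 6 rule genes Msln alone passed 2-fold, at 3.76 times higher (3.29 to 4.31). Upk3b was 1.56 times (1.37 to 1.79) and Lrrn4 1.60 times (1.34 to 1.92) higher. Wt1 (1.03, 0.92 to 1.15), Bnc1 (1.06, 0.87 to 1.30) and Muc16 (1.06, 1.01 to 1.12) stood close to 1.

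These ratios changed with the set of nuclei. Within cluster 12 Msln was 2.81 times higher in the KO library (2.22 to 3.60) and within cluster 14 1.88 times (1.52 to 2.35), both less than over all members. Upk3b was 0.72 times its WT level in cluster 12 (0.56 to 0.92) and 1.08 times in cluster 14 (0.85 to 1.39). Lrrn4 was 0.76 times in cluster 12 (0.56 to 1.05), 1.19 times in cluster 14 (0.87 to 1.67) and 2.0 times in low-marker nuclei. The ratios of Upk3b and Lrrn4 over all members thus did not hold within the clusters. Wt1 (0.95 and 0.89), Muc16 (0.93 and 1.0) and Bnc1 (0.94 and 0.91) stood at or below 1 in both clusters. Msln was also 3.43 times higher in the low-marker nuclei (2.25 to 5.32), where it reached only 20.3 CPM in the KO library. The clusters were formed without holding out the innate or the further mesothelial genes, so the values of these genes by cluster are a description.

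Of the 12 innate secreted genes, 10 had at least 50 UMIs in members, and 6 of these were at least 2-fold higher in KO members and none lower, with a median ratio of 2.21. Over all 7514 genes 5.62% were at least 2-fold higher and 3.71% lower, the shares to set beside each list count below. Slpi was 4.23 times higher (3.76 to 4.78), C3 2.28 times (2.18 to 2.38), Chil1 9.25 times (6.43 to 13.7) and Cfb, complement factor B, 2.21 times (1.93 to 2.53). Lcn2, which encodes an iron-scavenging lipocalin, had 6 and 60 UMIs, 8.61 times (3.73 to 24.4). Within clusters 12 and 14 Slpi was 2.15 and 2.04 times higher and C3 1.27 and 1.23 times. In the low-marker nuclei Slpi was 2.15 times and C3 1.85 times higher too. The ratios over all members also depended on the weight of deep nuclei. With members weighted equally, an alternative chosen after seeing the data, C3 came to 1.62, Cfb to 1.74 and C1s1, also among the 6, to 1.55. By that weighting these 3 did not pass 2-fold, whereas Slpi (2.84), Chil1 (7.44) and Lcn2 (14.4) did.

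**Figure D4:**
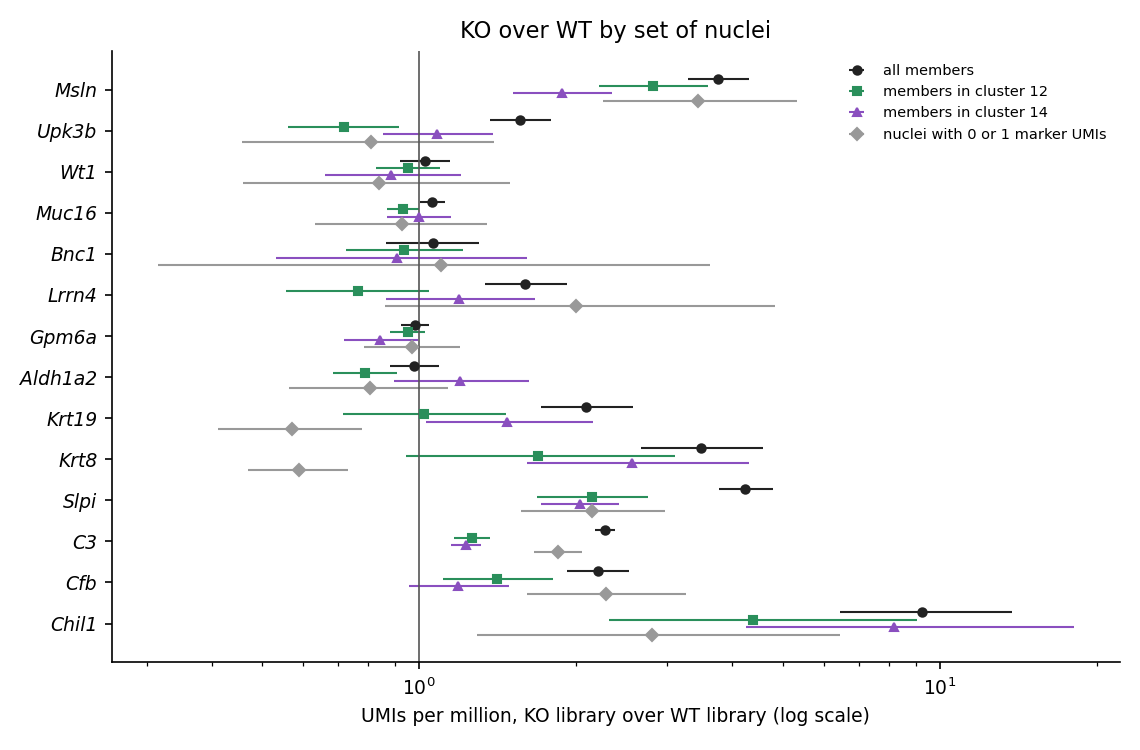
Ratio of CPM, KO over WT library (log scale), for 14 genes in all members, in members of clusters 12 and 14, and in nuclei with 0 or 1 marker UMIs, with exact intervals for counting error. The vertical line marks equal levels; Msln, Slpi and Chil1 lie to its right in all 4 sets, while Wt1, Muc16 and Gpm6a lie close to it.

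Of the 18 further mesothelial genes 6 were at least 2-fold higher in KO members and none lower, with a median ratio of 1.54. The 6 were the keratin genes Krt8 (3.48), Krt18 (3.83), Krt7 (3.08) and Krt19 (2.10), with Pdpn (2.42), which encodes podoplanin, and Prg4. In low-marker nuclei the 4 keratin genes were lower in the KO library, between 0.56 times for Krt7 and 0.72 times for Krt18, and Pdpn was at 1.16. Within cluster 12 Krt18 alone of these 5 genes passed 2-fold, at 3.68 times (1.79 to 8.29), and the intervals of Krt7 (1.34), Krt8 (1.69), Krt19 (1.03) and Pdpn (1.504) all held 1. Within cluster 14 Krt7 (2.75) and Krt8 (2.57) passed 2-fold, and Krt18 (1.74), Krt19 (1.48) and Pdpn (1.94) did not. Prg4, which encodes the lubricant lubricin, had 2 UMIs in 1 WT member and 54 UMIs in 39 KO members, a ratio of 23.2 (6.13 to 197). Gpm6a (0.98), Aldh1a2 (0.98) and Pkhd1l1 (0.86) were at or below their WT level.

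Basement membrane and matrix genes differed within their list, in which 4 of 11 countable genes passed 2-fold upward and none downward. Col4a1 and Col4a2, the main type IV collagen chains, were 3.61 and 4.08 times higher in KO members, and Fn1, fibronectin, 3.36 times. Col4a1, Col4a2 and Fn1 were also 2.51, 2.08 and 3.57 times higher in low-marker nuclei. None of these genes marked members. Relative to other nuclei Col4a1 was at 0.81 times in WT and 1.18 in KO members, Col4a2 at 0.59 and 1.13, and Fn1 at 0.55 and 0.52. Laminin genes stayed under 2-fold, with Lama5 at 1.81 and Lamc1 at 1.20. Has1, a hyaluronan synthase gene, had 8 and 51 UMIs, 5.49 times higher (2.58 to 13.4). Of 8 countable genes linked to mesothelial-to-mesenchymal transition, 3 passed 2-fold upward, Tgfbr1 (2.54), Tgfbi (2.93) and Col1a1 (3.06). These 3 were also higher in the KO library in low-marker nuclei (1.70, 3.57 and 3.24), and none marked members, with 0.57 and 0.88 times the level of other nuclei for Tgfbr1, 0.56 and 0.51 for Tgfbi, and 1.16 and 1.0 for Col1a1. The transcription factor genes Zeb1 (1.09) and Zeb2 (1.02) did not pass 2-fold. Bmper, which encodes a BMP-binding protein, was 3.92 times and Igfbp5 2.90 times higher. None of the 10 countable lineage transcription factor genes passed 2-fold. With 5.62% of all genes higher and 3.71% lower, a list of 10 is too short for that to set it apart.

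Several of the most extreme ratios rested on few nuclei. The 8 highest were Lmcd1, Gm11846, Slurp1, Tac1, Ctla2a, Prg4, Serpina3n and Alkal1. Of these Gm11846 had 94 of 95 KO UMIs in 1 nucleus and Tac1 83 of 121, whereas Serpina3n, which encodes an acute-phase protease inhibitor, had 308 UMIs in 110 KO members and 15 in 15 WT members. Serpina3n was 17.7 times higher in members (10.6 to 32.0) and 18.1 times higher in low-marker nuclei. The 8 lowest were Col25a1, Cdh18, Barx2, Unc5d, Cntnap5a, Grm7, Car8 and Lingo2. Of these Cdh18 (60 of 70 UMIs) and Lingo2 (140 of 186) had most of their WT UMIs in 1 nucleus. Cluster 12 held 43 of the 56 Barx2 UMIs of WT members but few for the others. It held 11 of 367 for Grm7, 1 of 186 for Lingo2, 2 of 149 for Cntnap5a and 2 of 108 for Unc5d. For Cdh18 it held 2 of 70, for Col25a1 1 of 74 and for Car8 1 of 48. Cluster 14 held at most 2 of each of these. Apart from Barx2, the lowest ratios thus rested mainly on members outside clusters 12 and 14. Barx2, a homeobox gene, had 56 UMIs in 29 WT members and 3 UMIs in 3 KO members, 0.05 times the WT level (0.01 to 0.14).

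Bulk RNA allowed the mesothelial genes to be compared over replicate libraries. The labels do not say whether libraries came from separate animals, so p-values measure only the spread between these libraries, and in bulk RNA fewer cells of a type and less RNA per cell cannot be told apart. Of 24 mesothelial genes 23 were tested and Muc16 was not analysed here. In colon 1 of 23 passed an adjusted p of 0.05 and was lower, against 81 of 20886 genes over all (0.388%, of which 0.115% higher and 0.273% lower). In jejunum 0 of 23 did, against 45 of 20886 (0.215%, of which 0.124% higher and 0.091% lower). At an unadjusted p under 0.05 there were 10 in colon and 8 in jejunum by edgeR, where 14.5% and 13.2% of all genes passed. DESeq2 called 6 in colon and 5 in jejunum, beside 5.01% and 3.95% of the genes to which it gave an adjusted p. The 6 in colon were Upk3b, Bnc1, Gpm6a, Efemp1, Cldn15 and, as the one that was higher, Prg4, and the 5 in jejunum were the first 5 of these. The median log2 fold change over the 5 rule genes tested was -1.26 in colon and -0.92 in jejunum, beside 0.00 and 0.02 over all genes. Over the 18 further mesothelial genes it was -0.45 and -0.49, with 12 of 18 lower in each tissue.

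The gene called was Cldn15, which encodes a pore-forming claudin of tight junctions. It had 13.5, 10.3 and 14.3 CPM in the KO colon libraries and 53.2, 52.6 and 39.8 in WT, with no overlap. By edgeR's quasi-likelihood test it fell by 1.93 on the log2 scale (SE 0.36, Benjamini-Hochberg adjusted p = 0.0467). The jejunum values of Cldn15 were 26.9, 55.8 and 71.5 CPM against 130, 90.2 and 193, again apart, with -1.42 on the log2 scale (SE 0.35, adjusted p = 0.125, and 0.00887 by DESeq2). The colon call is fragile, since it was lost without any 1 of the 6 colon libraries (adjusted p up to 0.186 without WT t1) and also without jejunum KO t1 or any jejunum WT library.

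Upk3b stood lower in the libraries labelled KO with no overlap in both tissues. In colon it had 42.3, 50.03 and 17.1 CPM in KO and 62.5, 118 and 176 in WT, or -1.70 on the log2 scale (SE 0.46, adjusted p = 0.147 by edgeR and 0.0128 by DESeq2). Jejunum Upk3b was 139, 136 and 219 CPM against 395, 337 and 685, or -1.52 on the log2 scale (SE 0.46, adjusted p = 0.198 by edgeR and 0.0355 by DESeq2). Bnc1 had 8.58, 10.0 and 5.80 against 12.8, 26.2 and 31.1 CPM in colon, and 22.8, 24.6 and 49.5 against 73.2, 56.2 and 124 in jejunum. Gpm6a had 12.5, 12 and 10.4 against 20.7, 51.0 and 47.7 CPM in colon, and 68.4, 36.7 and 87.0 against 203, 118 and 277 in jejunum. Neither gene passed the edgeR threshold in either tissue (adjusted p between 0.107 and 0.195), and both did with DESeq2 (0.0197 and 0.0413 for Bnc1, 0.00273 and 0.00753 for Gpm6a). Efemp1, which encodes the matrix protein fibulin-3, was the fifth gene without overlap in both tissues, at -1.13 and -1.24 (edgeR adjusted p = 0.144 and 0.130, DESeq2 0.0230 and 0.0113). Over all genes tested, the groups did not overlap in 19.2% of genes in colon and 22.2% in jejunum, with KO values all below WT in 10.4% and 11.2%.

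**Figure D5:**
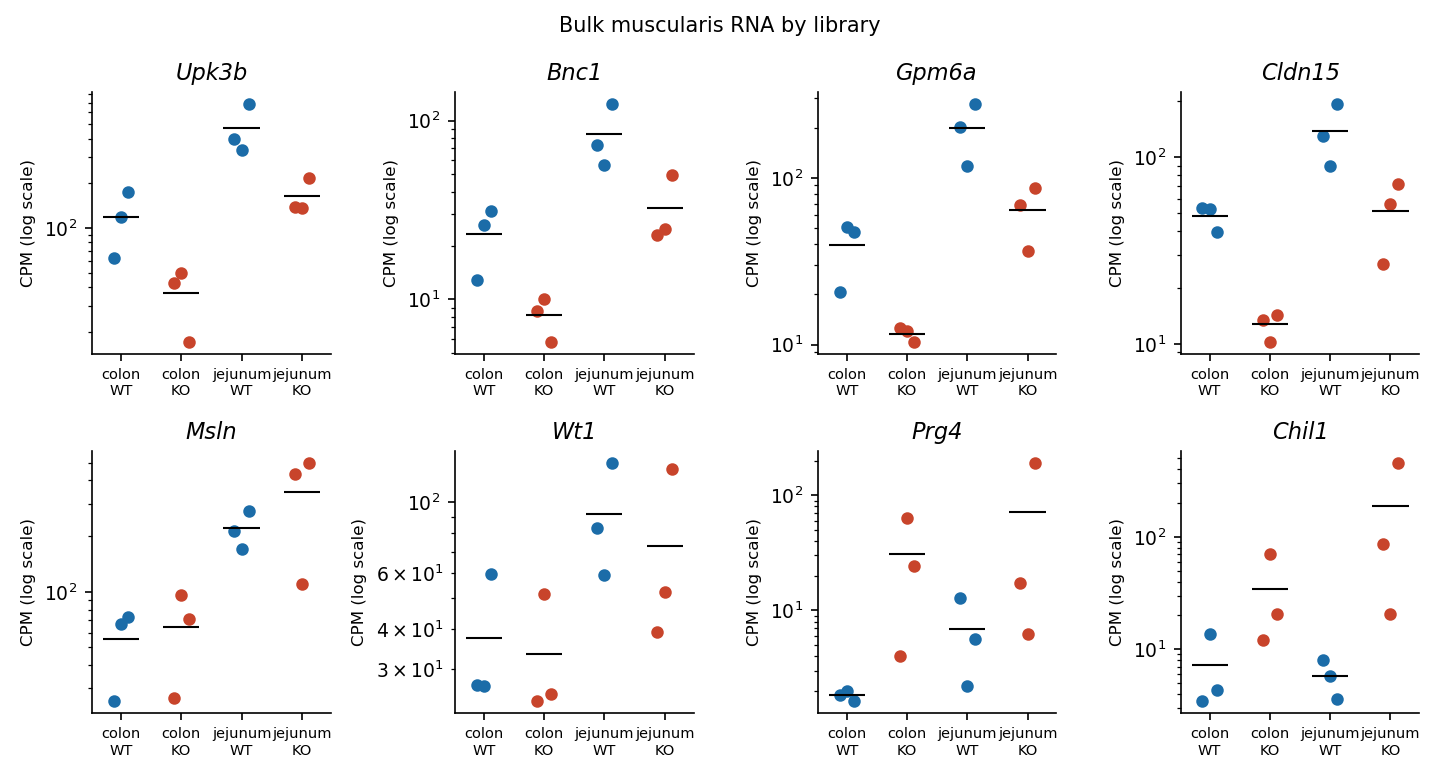
CPM of 8 mesothelial and innate genes in each bulk library (points, log scale) with the group mean (line), 3 libraries per group. KO points lie below all WT points for Upk3b, Bnc1, Gpm6a and Cldn15 in both tissues, and overlap for Msln and Wt1.

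Msln, which was higher in KO members of the nuclei, overlapped between the bulk groups. Its colon values were 26.7, 96.5 and 71.1 CPM in KO and 25.7, 66.9 and 73.3 in WT, and its log2 fold changes were 0.23 in colon and 0.66 in jejunum (edgeR adjusted p = 0.912 and 0.675). Wt1 overlapped as well, at -0.16 and -0.33 (0.928 and 0.827). Bnc1 and Gpm6a, which were lower in every KO bulk library, stood near equal levels in the nuclei (1.06 and 0.98), and Upk3b differed in direction over all members. That difference between assays was not tested.

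The innate genes varied widely between bulk libraries. Their summed level, over the list of 12, was highest of the colon libraries in KO t4, at 6573 CPM against 2281 to 4670 in the others. That library also had the highest sum of the 4 macrophage genes (712 CPM, against 156 to 284) and of the fibroblast genes (10210 CPM, against 2106 to 4601). In jejunum the macrophage sums were 705, 279 and 427 CPM in KO and 173, 192 and 94.2 in WT, with all 4 genes above every WT value, a median log2 fold change of 1.84 and 0 of 4 called by edgeR. In colon they overlapped, with a median of 0.70. The part of macrophages or of single libraries in the innate values was not tested. Chil1 had 12.1, 71.0 and 20.5 CPM in the KO colon libraries and 3.46, 13.8 and 4.37 in WT, which overlap. Its jejunum values were 85.9, 20.4 and 454 CPM in KO and 7.96, 5.80 and 3.60 in WT, apart but short of the edgeR threshold (log2 difference 5.02, SE 1.17, adjusted p = 0.116). DESeq2 called it (adjusted p = 0.000337). Its jejunum value ran from 3.19 without KO t4 to 5.54 without KO t1, and its colon value from 1.17 without colon KO t4 to 3.17 without WT t6. Lcn2 and Hp, which encode lipocalin 2 and haptoglobin, were higher in every KO than in every WT library of both tissues. For Lcn2 the log2 fold changes were 4.26 and 4.59 (adjusted p = 0.175 and 0.177). KO values lay all above WT in 8.79% of all genes in colon and 11% in jejunum. Slpi overlapped in both tissues, at 1.28 in colon and -0.07 in jejunum, and C3 did so at -0.51 and -0.36. Prg4 had 4.02, 63.8 and 24.1 CPM in KO colon against 1.85, 2.01 and 1.64 in WT, or 4.06 on the log2 scale (SE 1.34, adjusted p = 0.208 by edgeR and 0.0216 by DESeq2), and its jejunum values overlapped. Without colon KO t4 the colon value of Prg4 was 2.94, and without jejunum KO t4 its jejunum value was 0.76, against up to 4.16 without jejunum WT t1. When the KO effect in colon was set against that in jejunum, the smallest adjusted p over all genes was 0.353.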

How the data were processed

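Single-nucleus RNA and open chromatin were measured together in 1 colon library per label, and bulk RNA in 12 libraries. Per the file headers the authors made the nuclei count matrices with cellranger-arc 2.0.0 on mm10. Per the submitters' processing notes STAR 2.0.4b, featureCounts 1.4.5 (Subread), edgeR and Cell Ranger were used, with GRCm38 also named. The deposited gene counts of nuclei were all even and were divided by 2 to give UMIs, an inference from the values; region counts were used as deposited. Bulk counts were used as deposited.

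Members were found by the stated rule. No doublet caller was run. Of 11 barcodes shared between the libraries, none was a member. Summed UMIs were scaled to CPM, with exact 95% intervals for counting error; 1 library per label gives no test. Clusters used 2000 variable genes, 30 components, 15 neighbours and resolution 1 in scanpy 1.11.5. Bulk counts were fitted with edgeR 4.0.16 (R 4.3.3; quasi-likelihood, TMM, 12 libraries, Benjamini-Hochberg over 20886 genes), with DESeq2 1.42.0 as an alternative. Python 3.11.15, numpy 2.4.6 and scipy 1.17.1 did the rest. Of the steps, the ratio intervals with the 2-fold rule and the edgeR colon comparison were tested on simulated counts.

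Members and gene lists were chosen with earlier results of these data known. Named genes were the rule genes, the 18 further mesothelial genes, the 15 with the highest smaller ratio over other nuclei, the 8 highest and 8 lowest KO over WT ratios, Slpi, C3, Chil1, mitochondrial genes, and the members of each role list with the most UMIs. Gata5, Gata6, Tcf21, Tbx18, Cdh1, Lama5, Has1, Tgfbi, Col1a1, Lcn2, Hp and Dcn lie outside that rule and were named after their values were seen, and 1 item is not reported here.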

Additional observations from a re-analysis of the deposited data

Results flagged for a closer look

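Barcodes with at least 2 marker UMIs that were left out by the mitochondrial limit made up a larger share of the KO than of the WT library. In the KO library 123 of the 140 barcodes over 5% had at least 2 marker UMIs, which is 6.70% of its 1836 barcodes with at least 300 genes (exact binomial interval 5.60 to 7.94). In the WT library 24 of 31 had, which is 0.837% of 2868 (0.537 to 1.24). With 1 library per label the difference was not tested, and RNA quality and label cannot be told apart.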

How the results depend on the processing

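The share of nuclei that were members depended on the rule. In the WT library it was 21.9%, 13.6% and 11.9% with at least 1, 3 and 4 marker UMIs, 17.7% without the Pdgfra and Epcam exclusion, 12.3% with at most 1% mitochondrial UMIs, 13.7% after thinning to 1000 UMIs, 8.28% where marker UMIs had to reach those of every other list but smooth muscle, and 10.2% by cluster 12 alone. In the KO library it was 29.3%, 17.7% and 16.1% with at least 1, 3 and 4 marker UMIs, 22.8% without the exclusion, 12.2% with at most 1% mitochondrial UMIs, 24.4% with no limit, 10.97% by the comparison with other lists, 9.91% by cluster 12, and 18.2% by clusters 10, 12 and 14, an alternative chosen after seeing the data. The 701 genes past 2-fold were of 7514 counted (5.62% higher and 3.71% lower). With at least 100 UMIs there were 423 of 4994 (8.47%), and in cluster 12 236 of 3802 (6.21%), so fewer genes were counted in both. At 3-fold there were 230 of 7514 (3.06%). In cluster 12 nuclei Upk3b was 0.70, Lrrn4 0.79, Efemp1 0.93 and Krt19 0.91, all turned below 1, and Msln fell to 2.79. With members weighted equally, an alternative chosen after seeing the data, Efemp1, Upk3b, Lrrn4 and Msln came to 0.98, 1.12, 1.22 and 2.46. With no mitochondrial limit Msln was 4.86. Without the exclusion Lingo2 turned to 2.31. Single-gene ratios with under 30 UMIs gave no value. The ratios at gene starts stayed within their intervals under the 5 alternatives run in each library. Depth limits single nuclei: medians of 1464 and 2570 UMIs leave genes at few UMIs undetected.

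In bulk, DESeq2 called 6 mesothelial genes in colon and 5 in jejunum, and the colon fit on its own 6 libraries called 0. With the title tag as a replicate block 0 were called in colon, Msln turned to -0.24 in colon and Krt19 to -0.36 in jejunum. Libraries that shared a tag had correlations from -0.16 to 0.19 in their deviations from group means. Such correlations over groups of 3 libraries cannot tell whether a tag marks the same animal. The main fit did not use the tags. Leaving out 1 library at a time gave 0 to 1 calls in colon. Over those fits Msln in colon ranged from -0.18 to 0.60, Wt1 in colon from -0.61 to 0.36 and in jejunum from -1.01 to 0.023, Slpi in colon from -0.041 to 1.67 and in jejunum from -0.62 to 0.20, and Krt19 in colon from -0.88 to 0.52 and in jejunum from -0.15 to 0.51. Over all genes DESeq2 called 960 in colon and 805 in jejunum, against 81 and 45 by edgeR. Causes of these shifts were not tested.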
